A study of Mus musculus with 38 samples.

Results

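Mouse embryonic stem cells kept for 24 days in a GSK3 inhibitor were compared with the same line kept in serum, to ask which differences from serum culture remain after a long period without serum. The comparison takes 5 of the 14 RNA sequencing libraries in a series of 38 samples, chosen by their labels: replicates 2 and 3 of 24d GSK3i/L and replicates 1, 2 and 3 of 8d S/L. The cells are E14, an XY line of strain 129/Ola grown on gelatin without feeder cells. S/L is serum-containing DMEM with leukaemia inhibitory factor (LIF). GSK3i/L is N2B27, a serum-free medium of defined supplements, with LIF and 3 µM CHIR99021, an inhibitor of the kinase GSK3. All cells were plated in S/L before the medium was changed and were passaged every 2 days. Serum, basal medium, inhibitor and days in culture therefore differ together between the 2 groups and cannot be told apart, and no S/L library of 24 days was analysed here. The 3 libraries of 8d GSK3i/L, the same medium and dose at an earlier time, are given beside the results. The design text calls the samples biological replicates without saying whether they were separate cultures. The p-values therefore measure a spread between libraries, which may be technical in part. That spread was estimated from all 14 RNA sequencing libraries, also those of 8d MEKi/L (1 µM MEK inhibitor) and 8d 2i/L (both inhibitors).

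GSK3 marks the transcriptional co-activator beta-catenin for destruction, so its inhibition lets beta-catenin accumulate and act with TCF and LEF proteins on Wnt target genes. In mouse embryonic stem cells this relieves repression of self-renewal genes and is widely used, with LIF or with a MEK inhibitor, to hold cells in the naive state that resembles the preimplantation epiblast. Serum carries lipids and growth factors that act through RhoA and actin on serum response factor (SRF) and YAP, and through BMP receptors on SMAD proteins and ID genes. Cultures in serum are mixed, and hold cells that express early postimplantation genes beside naive ones.

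RNA levels are given in RPM, the reads of a gene scaled to the total of its library, and values listed for several libraries follow replicate order. Estimated depth was 13170000 and 11360000 reads for the 24d libraries and 9140000 to 10840000 reads for the S/L libraries, so that 3 reads stand for a mean of 0.246 RPM and 0.229 RPM. Replicates correlated at 0.982 (24d) and 0.976 to 0.983 (S/L) across genes, against 0.911 to 0.923 between the groups. The S/L and 8d GSK3i/L values had been matched to a common distribution before deposit and the 24d values had not. The median difference of all genes tested, 24d minus S/L, was -0.12 on the log2 scale, and each difference is read beside that value; the part of the matching in it was not tested. A score of long against short housekeeping transcripts was -3.28 ± 0.41 (SD, n = 2) at 24 days and -2.58 ± 0.27 (SD, n = 3) in S/L. In 8d GSK3i/L it was -1.32 ± 1.50 (SD, n = 3), with replicate 1 highest at 0.30. The part of transcript length in the results was not tested beyond adding the score to the fit.

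Core identity genes of embryonic stem cells were expressed in both groups. Pou5f1, which encodes OCT4, had 1364, 1387 and 1492 RPM in S/L and 1288 and 1104 RPM at 24 days, and its log2 difference of -0.25 ± 0.19 (SE) did not pass (adjusted p = 0.386, limma). Nanog had 349, 384 and 399 RPM in S/L and 476 and 388 RPM at 24 days (log2 difference 0.19, adjusted p = 0.546). Sox2 and Zfp42 did not pass either, with log2 differences of -0.43 and -0.09 (adjusted p = 0.337 and 0.864). Sall4, a zinc finger factor of the same network, was lower at 24 days by a log2 difference of -1.15 (adjusted p = 0.0252), with an adjusted p that missed 0.05 without 24d replicate 2 (0.129), 24d replicate 3 (0.102), S/L replicate 2 (0.0694) or S/L replicate 3 (0.0833). Each of the 5 identity markers was thus present in each library. In bulk RNA, fewer cells of a type and less RNA per cell cannot be told apart.

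Across the 15357 genes tested, 1093 were higher at 24 days than in S/L (7.12%) and 1600 were lower (10.4%), at an adjusted p under 0.05 and a difference of at least 2-fold (limma, Benjamini-Hochberg). Falls made up the larger share in these values, but quantile normalization of all libraries gave 1379 higher and 1349 lower, so the balance of rises to falls rests on the scaling. Rises depended more on a single library: without 24d replicate 3 they numbered 602. With no minimum fold, the rule used below for members of gene groups, 1553 genes were higher (10.1%) and 2299 were lower (15.0%). Each group below is read against these shares and against the median of -0.12.

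The genes with the largest rises mostly do not belong to pathways usually followed in stem cells. Trpm1, a cation channel known from retina and melanocytes, had 1.09, 5.01 and 2.36 RPM in S/L, 49.8, 114 and 115 RPM in 8d GSK3i/L and 146 and 194 RPM at 24 days, a log2 difference from S/L of 6.17 ± 0.49 (adjusted p = 2.28e-06). Calb2, the calcium-binding protein calretinin, had 1.51, 2.36 and 2.45 RPM in S/L and 52.03 and 61.8 RPM at 24 days (log2 difference 4.78 ± 0.27, adjusted p = 1.47e-07). Smad9, a receptor-activated SMAD of the BMP pathway, went from 0.0918, 0.142 and 0.0935 RPM to 8.51 and 10.7 RPM (log2 difference 6.48, adjusted p = 4.95e-08). For these 3 genes the groups lay far apart, and the 8d GSK3i/L libraries were already high. Pglyrp1, a peptidoglycan recognition protein, had 2 reads in the 3 S/L libraries together and 27.6 and 14.8 RPM at 24 days, a ratio of 324 (95% counting interval 89.7 to 2676). Pou2f3, a POU factor of tuft cells, had 0.554, 0.925 and 1.29 RPM in S/L and 14.3 and 18.3 RPM at 24 days. The other rises among the largest 15 were Zmynd10, Dclk3, C8b, Tex13, Grin2c, Calr4, Nkx1-2, T, S100g and Pitx1.

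S100g and Pitx1 stood apart from that set because they were near 0 after 8 days in the inhibitor. S100g, the vitamin D-dependent calcium-binding protein calbindin-D9k, had 0.0918, 0 and 0.0935 RPM in S/L, 0, 0 and 0.876 RPM in 8d GSK3i/L and 26.1 and 10.7 RPM at 24 days. Pitx1, a homeobox factor of hindlimb and pituitary, had 0 reads in S/L, 0.0906, 0.128 and 0.324 RPM in 8d GSK3i/L and 7.22 and 3.26 RPM at 24 days, at least 22-fold higher than in S/L. Tested directly, 24d exceeded 8d GSK3i/L by 6.51 ± 0.84 on the log2 scale for S100g (adjusted p = 4.83e-04) and by 4.96 ± 0.67 for Pitx1 (adjusted p = 6.06e-04). Both calls held under each of the 12 other settings run for that contrast. Replicate 2 was the higher of the 24d libraries for both genes.

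Several of the largest falls were genes that serum cultures held at substantial levels and that were at or near 0 reads at 24 days. Myo1f, an unconventional myosin known from blood cells, had 67.3, 55.1 and 39.4 RPM in S/L and 0 reads in both 24d libraries, at least 219-fold lower. Aass, the first enzyme of lysine breakdown, had 81.1, 47.5 and 66.3 RPM in S/L, 0.337, 0.492 and 0.740 RPM in 8d GSK3i/L and 0.684 and 0.440 RPM at 24 days (log2 difference -6.85 ± 0.46, adjusted p = 4.82e-07). Tnfsf11, which encodes the cytokine RANKL, was at least 29-fold lower, and Fndc3c1 at least 38-fold lower. Wt1, a zinc finger factor of kidney and gonad, had 8.33, 6.40 and 5.45 RPM in S/L and 1 read at 24 days, a ratio of 165 (95% counting interval 29.6 to 6514). Smtnl1, a smoothelin-like muscle protein, had 7.86, 7.94 and 7.12 RPM in S/L and 0 reads at 24 days. The groups did not overlap for any of the 30 genes in the 2 sets of largest changes, a condition of their choice. Of all genes tested, 22.9% had both 24d libraries above the S/L libraries and 33.0% had both below.

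**Figure D1:**
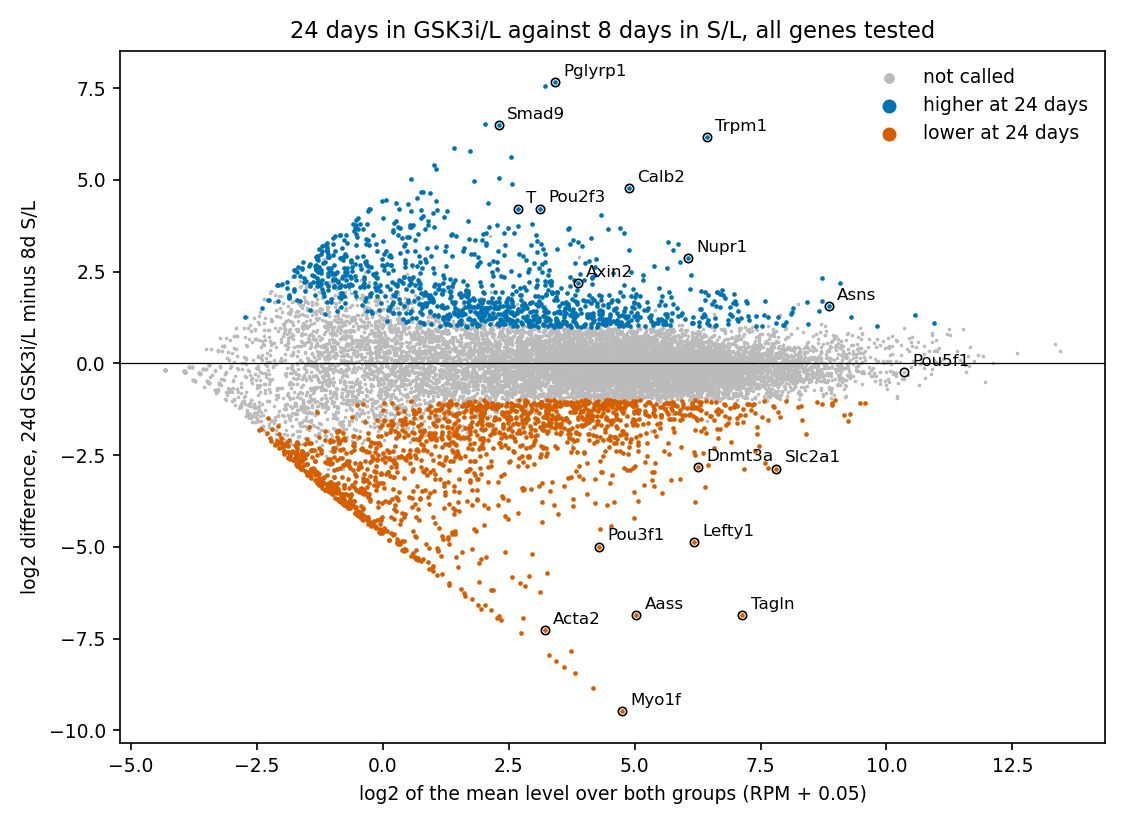
Each point is a gene tested, with the log2 of its mean level over 24d GSK3i/L and 8d S/L (x axis, RPM + 0.05) and its fitted log2 difference, 24d minus S/L (y axis); coloured points passed the adjusted p and 2-fold limits, blue for higher and orange for lower at 24 days. Trpm1, Calb2 and Smad9 lie far above the line at 0, Myo1f, Tagln and Acta2 far below it, and Pou5f1 close to it; the fitted differences of genes at 0 to 3 reads, Myo1f and Acta2 among them, depend on the value set for 0 reads.

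Contractile and cytoskeletal genes that SRF and YAP control were lower at 24 days than in serum. Of 23 members tested, 15 were lower at 24 days than in S/L and the other 8 did not pass, with a median log2 difference of -1.21. Tagln, the actin-binding smooth muscle protein transgelin, had 382, 163 and 291 RPM in S/L, 37.3, 51.8 and 94.2 RPM in 8d GSK3i/L and 3.19 and 1.58 RPM at 24 days, a log2 difference from S/L of -6.87 ± 0.49 (adjusted p = 7.70e-07). Acta2, smooth muscle actin, had 29.7, 11.7 and 13.8 RPM in S/L, 35.7, 38.3 and 33.5 RPM in 8d GSK3i/L and 0.152 and 0 RPM at 24 days. Its 24d total was 2 reads, which gives a ratio of 226 (95% counting interval 62.6 to 1867) of S/L to 24 days. Thbs1, the matrix protein thrombospondin-1 and a YAP target, had 8.33, 6.28 and 14.5 RPM in S/L, 50.96, 40.03 and 30.2 RPM in 8d GSK3i/L and 1 read in all at 24 days, a ratio of 238 (95% counting interval 42.7 to 9405).

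These levels differed from those after 8 days in the inhibitor: Acta2 and Thbs1 were then at or above their S/L levels, and Tagln was between its S/L and 24d levels. The direct log2 difference of 24d from 8d GSK3i/L was -4.66 ± 0.49 for Tagln (adjusted p = 9.86e-05) and -4.36 ± 0.41 for Myl9 (adjusted p = 3.66e-05). Myl9, the regulatory light chain of smooth muscle myosin, had 11.6, 6.83 and 12.4 RPM in S/L, 5.60, 4.88 and 7.26 RPM in 8d GSK3i/L and 0.304 and 0.264 RPM at 24 days. Cnn1, the actin-binding protein calponin-1, had 13.4, 8.95 and 12.2 RPM in S/L and was already at 1.09, 0.995 and 1.44 RPM at 8 days, with 0.456 and 0.0881 RPM at 24 days (log2 difference from S/L -5.82, adjusted p = 4.74e-05). Members that did not pass include Actb (log2 difference -0.70, adjusted p = 0.102), Vcl (-0.69, 0.108) and Tagln2 (0.51, 0.103).

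SRF binds the CArG box, and 6 of the 19 members with a promoter in the RefSeq table (GRCm38.p6, 250 bases before to 50 after the start) hold that box on either strand, or 31.6%. Among the 27025 genes of the table, 488 hold it (1.81%). The list was chosen for control by SRF and YAP, so these shares describe the list and are no test. Of the members with a box, Vcl did not pass (limma, adjusted p = 0.108). Filip1l was lower (log2 difference -2.93, adjusted p = 0.00937) and its sequence is not shown. The 250 bases before the start are shown for 4 members that fell and hold the box there, with the box in capitals. Cnn2, Actg1 and Srf were picked for their promoters after their values had been seen.
Myl9 (chr2:156775214-156775463, plus strand, box 161 bases before the start): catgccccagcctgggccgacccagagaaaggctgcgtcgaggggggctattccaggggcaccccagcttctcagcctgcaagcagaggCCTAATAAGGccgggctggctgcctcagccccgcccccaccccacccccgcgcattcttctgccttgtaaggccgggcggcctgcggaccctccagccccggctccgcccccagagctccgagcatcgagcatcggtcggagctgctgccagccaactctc
Cnn2 (chr10:79988350-79988599, plus strand, box 56 bases before the start): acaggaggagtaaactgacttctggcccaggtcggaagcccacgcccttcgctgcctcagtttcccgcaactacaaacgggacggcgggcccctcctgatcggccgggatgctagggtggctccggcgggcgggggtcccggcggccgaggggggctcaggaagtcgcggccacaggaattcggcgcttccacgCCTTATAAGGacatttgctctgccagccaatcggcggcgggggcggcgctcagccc
Actg1 (chr11:120348496-120348745, minus strand, box 90 bases before the start): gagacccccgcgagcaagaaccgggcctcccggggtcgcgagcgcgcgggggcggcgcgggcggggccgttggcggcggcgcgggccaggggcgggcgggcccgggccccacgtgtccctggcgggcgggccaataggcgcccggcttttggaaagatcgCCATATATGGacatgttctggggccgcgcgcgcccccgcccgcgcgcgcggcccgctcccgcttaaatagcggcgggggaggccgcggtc
Srf (chr17:46556163-46556412, minus strand, boxes 82 and 62 bases before the start): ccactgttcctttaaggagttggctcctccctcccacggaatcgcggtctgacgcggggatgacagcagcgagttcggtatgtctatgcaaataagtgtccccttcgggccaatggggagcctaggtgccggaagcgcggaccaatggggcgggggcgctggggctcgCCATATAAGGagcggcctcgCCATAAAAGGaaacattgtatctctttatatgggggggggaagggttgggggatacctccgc
Cnn2, calponin-2, had 86.6, 70.7 and 92.1 RPM in S/L and 18.5 and 18.1 RPM at 24 days (log2 difference -2.17 ± 0.18, adjusted p = 2.77e-06). Actg1, cytoplasmic gamma actin, had 137, 169 and 191 RPM and 71.02 and 71.3 RPM (log2 difference -1.21, adjusted p = 6.62e-04). Srf itself had 31.1, 42.5 and 52.03 RPM and 18.5 and 22.3 RPM (log2 difference -1.01, adjusted p = 0.00915). The 3 genes were lower in both 24d libraries than in each S/L library, and the matches describe the sequence without showing binding. The promoter windows of Acta2 and Cnn1 hold no match to these letters.

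**Figure D2:**
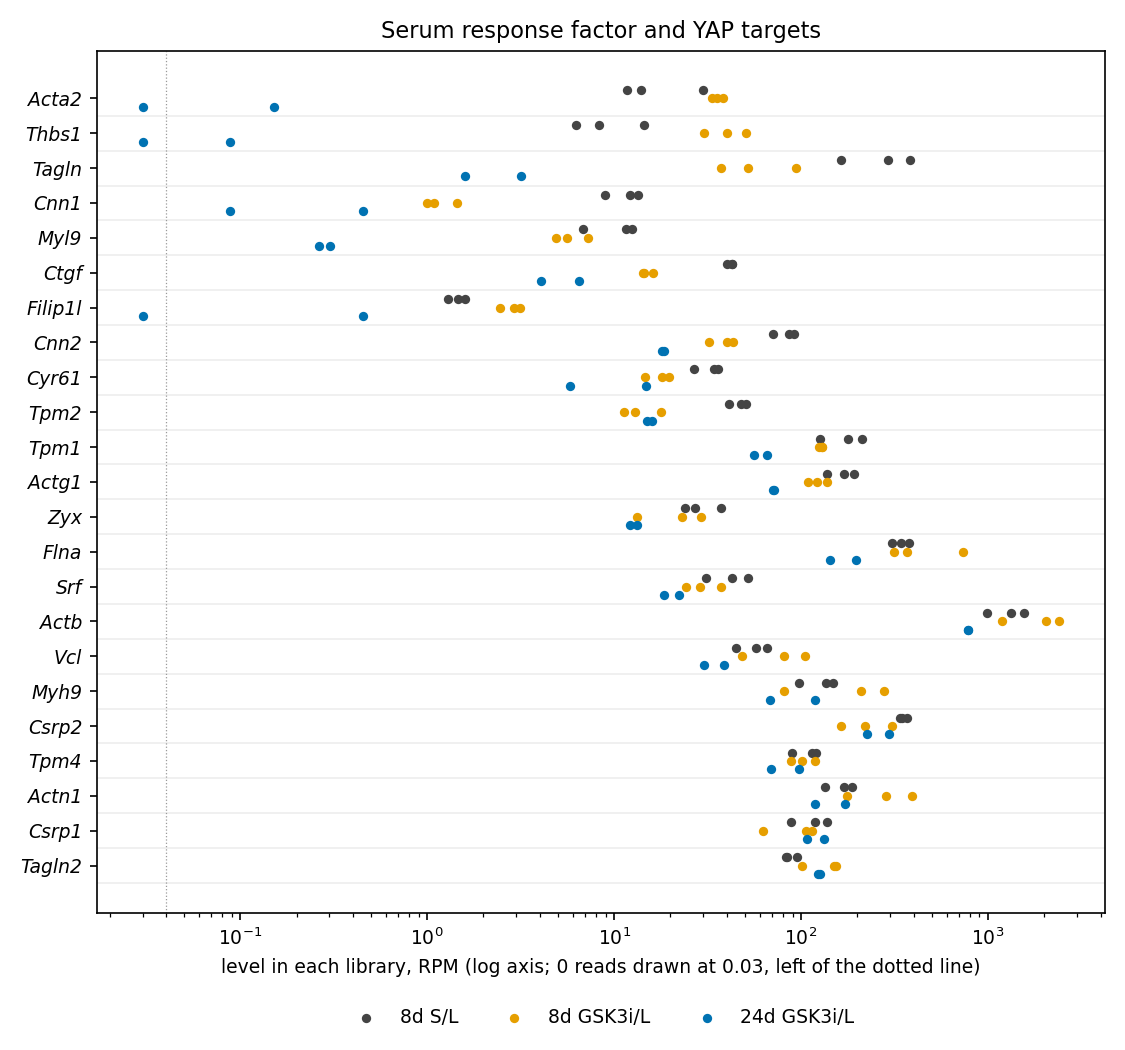
Levels of the 23 tested SRF and YAP target genes in RPM (x axis, log scale) for each library of 8d S/L, 8d GSK3i/L and 24d GSK3i/L, each point 1 library; points left of the dotted line stand for 0 reads. Acta2, Thbs1, Tagln, Cnn1 and Myl9 sit far to the left at 24 days, and Acta2 and Thbs1 sit right of S/L at 8 days.

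Some targets of MEK and ERK, the kinases that growth factors activate, were lower in the GSK3 inhibitor medium, which held no MEK inhibitor. Of 21 members tested 8 were lower and the other 13 did not pass (median log2 difference -0.80). Leaving out 24d replicate 3 gave 5 lower, and 13 were lower in a fit of the 5 libraries alone. Dusp5, a phosphatase that inactivates nuclear ERK and is induced by it, had 11.1, 8.42 and 11.4 RPM in S/L, 3.82, 2.21 and 2.36 RPM in 8d GSK3i/L and 0.684 and 0.881 RPM at 24 days (log2 difference from S/L -3.72 ± 0.33, adjusted p = 4.65e-06). Myc, the growth-promoting transcription factor, had 45.2, 28.9 and 48.8 RPM in S/L and 6.46 and 2.73 RPM at 24 days (log2 difference -3.25 ± 0.62, adjusted p = 0.00178). Junb and Phlda1 fell as well, by log2 differences of -1.54 and -1.72 (adjusted p = 4.33e-04 and 0.00217). Several feedback genes that report ERK activity did not pass. Spry1, Spry2 and Dusp4 had log2 differences of -0.12, -0.42 and 0.05, and Etv4 had -0.36, with adjusted p between 0.205 and 0.948 for the 4 genes. Egr1, an immediate early factor, had 7.46, 10.96 and 19.1 RPM in S/L and 1.14 and 1.06 RPM at 24 days (adjusted p = 0.00725), with an adjusted p that missed 0.05 without 24d replicate 3 (0.0565).

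Nodal signalling genes formed another group of falls: 7 of 11 were lower and the other 4 did not pass, with a median of -1.51. Lefty1, a secreted Nodal antagonist that Nodal itself induces, had 131, 195 and 95.2 RPM in S/L, 16.1, 17.5 and 23.2 RPM in 8d GSK3i/L and 4.79 and 4.40 RPM at 24 days (log2 difference from S/L -4.87 ± 0.33, adjusted p = 4.82e-07). Lefty2, its neighbour and paralogue, had 77.7, 54.1 and 45.2 RPM in S/L and 17.01 and 13.9 RPM at 24 days, but 121, 64.1 and 99.5 RPM in 8d GSK3i/L. Both were lower at 24 than at 8 days in the inhibitor, by log2 differences of -2.03 (adjusted p = 0.00229) and -2.58 (adjusted p = 6.12e-04). Skil, a SMAD co-repressor, and Inhbb, an activin subunit, fell by log2 differences of -2.46 and -2.70 (adjusted p = 6.04e-06 and 0.00438). The co-receptor Tdgf1 did not pass (log2 difference -0.42, adjusted p = 0.345).

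BMP pathway and ID genes moved in both directions, with 3 of 17 higher, 6 lower and 8 not past the test (median -0.51, or 0.12 without 24d replicate 3). Leaving out 24d replicate 3 left 2 lower, and 3 were lower without S/L replicate 2. Id2 and Id1, helix-loop-helix inhibitors of differentiation factors that BMP in serum induces, were low in the inhibitor at both times. Id2 had 39.8, 44.1 and 39.01 RPM in S/L, 4.66, 2.998 and 5.67 RPM in 8d GSK3i/L and 3.34 and 2.38 RPM at 24 days (log2 difference from S/L -3.86 ± 0.32, adjusted p = 2.99e-06). Id1 had 47.6, 45.1 and 53.05 RPM in S/L and 7.44 and 6.08 RPM at 24 days (log2 difference -2.85 ± 0.55, adjusted p = 0.00189). Id4, a family member, went the other way, from 1.62, 1.89 and 1.39 RPM to 8.58 and 5.99 RPM (log2 difference 2.15, adjusted p = 2.46e-05). Id3 had a log2 difference of -0.76 and did not pass (adjusted p = 0.453). Of the ID genes, Id1 and Id2 thus fell, Id4 rose and Id3 did not pass.

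Wnt target and feedback genes, the direct readout of beta-catenin, were mixed at 24 days. Of 18 tested, 2 were higher, 4 were lower and 12 did not pass (median -0.18), while in 8d GSK3i/L against the same S/L libraries 6 were higher, or 4 without 8d GSK3i/L replicate 1. Without 24d replicate 2, 1 was higher at 24 days, and the median ran from -0.34 without S/L replicate 1 to -0.064 with quantile normalization. Shares of all genes higher and lower in that earlier comparison, with each 8d GSK3i/L library kept, were 16.6% and 14.5%. No share is given for the fit without replicate 1. In the direct test of 24d against 8d GSK3i/L, 7 of the 18 were lower at 24 days, where 12.9% of all genes tested were lower. That number was 3 without 8d GSK3i/L replicate 1, where 513 of the 15357 genes tested were lower. Axin2, a beta-catenin target that feeds back on the pathway, had 6.08, 4.20 and 5.67 RPM in S/L, 59.1, 51.4 and 36.9 RPM in 8d GSK3i/L and 22.2 and 25.5 RPM at 24 days, a log2 difference from S/L of 2.18 ± 0.27 (adjusted p = 5.60e-05). Axin2 thus stayed above serum in both 24d libraries. Its direct difference of 24 from 8 days was -1.02 (adjusted p = 0.0249), with an adjusted p that missed 0.05 without 24d replicate 2 (0.165), 24d replicate 3 (0.0890) or 8d GSK3i/L replicate 1 (0.0930). With the length score in the fit that difference was -0.55 (adjusted p = 0.201), and with the replicate block it was -0.93 (adjusted p = 0.0527). Cdx1, a caudal homeobox target, had 0.878, 0.142 and 0.794 RPM in S/L and 5.09 and 2.91 RPM at 24 days (log2 difference 3.05, adjusted p = 0.00417), with an adjusted p that missed 0.05 without 24d replicate 2 (0.0550).

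Notum, a secreted enzyme that inactivates Wnt proteins and is usually induced by the pathway, was lower than in serum. It had 40.4, 21.2 and 25.2 RPM in S/L, 51.7, 29.9 and 37.9 RPM in 8d GSK3i/L and 8.28 and 9.34 RPM at 24 days (log2 difference from S/L -1.66 ± 0.32, adjusted p = 0.00204), and its direct fall from 8 days was -2.14 ± 0.32 (adjusted p = 0.00142). Fgf17, a growth factor with TCF-responsive expression, had 33.96, 21.3 and 32.2 RPM in S/L and 9.12 and 10.04 RPM at 24 days (log2 difference -1.58, adjusted p = 2.35e-04). Lef1, a TCF-family factor, had a log2 difference of -1.34 (adjusted p = 0.0168), with an adjusted p that missed 0.05 without 24d replicate 2 (0.104), 24d replicate 3 (0.0718) or S/L replicate 3 (0.0603). Sp5, another direct target, had 4.85, 1.70 and 3.27 RPM in S/L and 11.4 and 7.31 RPM at 24 days and did not pass (log2 difference 1.61, adjusted p = 0.0641). Members past the test thus lay on both sides of serum after 24 days. The TCF core, searched as CTTTGAT or CTTTGAA on both strands, lies in the promoter window of 4 of the 12 members in the RefSeq table (33.3%) and of 2671 of 27025 genes (9.88%). Those 4 members are Sp5, Sp8, Tnfrsf19 and Amotl2, which did not pass the test (limma, adjusted p = 0.0641, 0.607, 0.644 and 0.291). The windows of Axin2 and Lef1 hold no match, and Notum, Fgf17 and Cdx1 have no promoter in the RefSeq table.

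Wnt ligands and secreted antagonists were expressed at low levels, and 7 of 19 were lower, 4 higher and 8 not past the test (median -0.81). Without 24d replicate 3, 2 were higher, and with no filter on low values the median was -0.50. Wnt7b had 4.71, 2.87 and 3.82 RPM in S/L and 1 read at 24 days, a ratio of 93.3 (95% counting interval 16.7 to 3683), and Wnt4 had 0 reads at 24 days and was at least 11-fold lower. Wnt3 was at least 4-fold lower, and Wnt5a, with 2 reads at 24 days, had a ratio of S/L to 24 days of 28.6 (95% counting interval 7.92 to 236). Dkk2 and Frzb, antagonists that bind Wnt co-receptors and Wnt proteins, were at 0 reads in S/L and at 24 days, and had 7.68, 6.27 and 6.81 RPM and 10.01, 6.41 and 4.76 RPM in 8d GSK3i/L. These 2 antagonists thus appeared at 8 days in libraries whose serum and 24d counterparts had no read. Within the 5 libraries of S/L and 24 days 16 of the 19 members reach the level filter, and these 2 are at 0 reads throughout. They are nonetheless included in the 19 tested and in the median, so the counts describe the libraries and are no test of the list.

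Most naive pluripotency factors did not pass the test: 3 of 16 were higher, 3 lower and 10 not past the test, with a median of 0.24. None was higher without 24d replicate 3, and 8 were with the length score in the fit, where the median was 0.42. Dppa3, also known as Stella, a maternal and germ cell factor that limits UHRF1, was the largest difference. It had 24.1, 24.3 and 22.99 RPM in S/L, 4.45, 5.41 and 7.76 RPM in 8d GSK3i/L and 2.28 and 3.35 RPM at 24 days (log2 difference from S/L -3.11 ± 0.29, adjusted p = 8.41e-06). Gbx2, a homeobox factor able to sustain self-renewal, fell from 45.7, 32.5 and 60.4 RPM to 16.9 and 18.1 RPM (log2 difference -1.36, adjusted p = 0.00407). Tcl1, an AKT co-activator, rose from 31.8, 43.4 and 41.7 RPM to 68.4 and 72.7 RPM (log2 difference 0.87, adjusted p = 0.00909). Esrrb, Klf2, Klf5 and Prdm14 had log2 differences of 0.25, -0.13, 0.22 and 0.23 and did not pass (adjusted p from 0.588 to 0.750).

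Klf4 and Tfcp2l1, which LIF and GSK3 inhibition support, were higher at 24 days, but whether they passed the test depended on single libraries. Without 24d replicate 3 their log2 differences from S/L were 0.91 and 0.89. Klf4 had 64.6, 83.7 and 75.2 RPM in S/L and 139 and 176 RPM at 24 days (log2 difference 1.08, adjusted p = 0.0124), with an adjusted p that missed 0.05 without 24d replicate 3 (0.125). Tfcp2l1 had 57.5, 95.7 and 85.3 RPM in S/L, 744, 572 and 262 RPM in 8d GSK3i/L and 144 and 220.2 RPM at 24 days (log2 difference from S/L 1.20, adjusted p = 0.0356), with an adjusted p that missed 0.05 without 24d replicate 2 (0.0571), 24d replicate 3 (0.266), S/L replicate 1 (0.114) or S/L replicate 3 (0.0655). Its adjusted p was also 0.0565 without trend and robust variances. Nr0b1, also known as Dax1, was lower by a log2 difference of -0.92 (adjusted p = 0.0217), with an adjusted p that missed 0.05 without 24d replicate 3 (0.189) or S/L replicate 3 (0.0840). Of the 10 general pluripotency factors tested, 6 were lower and the other 4 did not pass. The number that passed depended on single libraries: 2 were lower without S/L replicate 3, and fewer than 6 passed without either 24d library, which leaves 1 library in that group. The median log2 difference of the list moved less. It was -0.83 with each library kept, -0.83 without 24d replicate 2, -0.81 without 24d replicate 3 and -0.72 without S/L replicate 3. Dppa2, a partner of Dppa4, had the largest fall, from 98.6, 65.5 and 76.4 RPM to 18.1 and 12.4 RPM (log2 difference -2.40 ± 0.31, adjusted p = 9.30e-05).

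Formative and primed genes, which mark cells leaving the naive state, were mostly lower than in serum. Of 17 tested, 13 were lower, 1 was higher and 3 did not pass, with a median of -2.10. The 1 rise was lost when any of the 5 libraries was left out. Pou3f1, the POU factor OCT6 of the postimplantation epiblast, had 35.1, 29.4 and 49.9 RPM in S/L, 1.85, 0.827 and 0.324 RPM in 8d GSK3i/L and 0.911 and 1.50 RPM at 24 days (log2 difference from S/L -4.99 ± 0.62, adjusted p = 6.27e-05). Fgf15, a growth factor of epiblast and neural progenitors, had 8.98, 10.1 and 12.4 RPM and 0.380 and 0.793 RPM (log2 difference -4.25, adjusted p = 8.59e-05). Tcf15, a helix-loop-helix factor that primes cells for differentiation, had 72.2, 74.4 and 72.1 RPM in S/L and 9.27 and 6.87 RPM at 24 days (log2 difference -3.19 ± 0.30, adjusted p = 8.41e-06). Pim2, a serine kinase, fell with a log2 difference of -3.52 (adjusted p = 5.71e-06). Fgf5, the classical primed marker, was low in serum at 1.98, 0.467 and 3.04 RPM and had 1 read at 24 days. Pou3f1, Fgf15 and Tcf15 were also low at 8 days. Their direct differences of 24d from 8d GSK3i/L, which did not pass, were 0.56, 0.44 and -0.33 (adjusted p = 0.529, 0.580 and 0.446).

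Car4, a membrane carbonic anhydrase listed with these genes, followed another course. It had 18.6, 13.97 and 16.1 RPM in S/L, 0.200, 0.128 and 0.324 RPM in 8d GSK3i/L and 20.3 and 2.55 RPM at 24 days. The 24d libraries disagreed, with replicate 2 at the serum level and replicate 3 below it, and the difference from S/L did not pass (log2 difference -1.16, adjusted p = 0.250). The direct rise from 8 days was 5.15 ± 0.70 (adjusted p = 6.81e-04), and this call held in each setting run.

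Among genes that write and maintain DNA methylation, the de novo enzymes Dnmt3a and Dnmt3b fell, and Dnmt1 and Uhrf1 did not pass. Of 12 tested, 1 was higher, 4 lower and 7 not past the test (median -0.48). The number lower was 2 without 24d replicate 2, none was higher without 24d replicate 3 or S/L replicate 2, and the median was -0.30 with the length score in the fit. Dnmt3a, a de novo methyltransferase, had 141, 122 and 137 RPM in S/L, 38.3, 33.2 and 19.3 RPM in 8d GSK3i/L and 14.96 and 23.6 RPM at 24 days (log2 difference from S/L -2.82 ± 0.32, adjusted p = 2.86e-05). Dnmt3b, its paralogue, had 199.8, 250.5 and 343 RPM in S/L, 246, 167 and 120.1 RPM in 8d GSK3i/L and 69.7 and 87.4 RPM at 24 days (log2 difference -1.73 ± 0.36, adjusted p = 0.00340). Dnmt3l, their catalytically inactive cofactor, had 208, 277 and 307 RPM in S/L and 121 and 137 RPM at 24 days and did not pass (log2 difference -1.02, adjusted p = 0.0743). Dnmt1 and Uhrf1, which copy methylation after replication, had log2 differences of 0.01 and 0.53 (adjusted p = 0.988 and 0.304).

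Zfp57, a zinc finger protein that protects imprints, was higher with 309, 277 and 357 RPM in S/L and 522 and 639 RPM at 24 days (log2 difference 0.89, adjusted p = 0.0148), with an adjusted p that missed 0.05 without 24d replicate 3 (0.141) or S/L replicate 2 (0.0548). The H3K9 methyltransferase gene Ehmt1 was lower by a log2 difference of -0.86 (adjusted p = 0.0104), with an adjusted p that missed 0.05 without 24d replicate 2 (0.0720) or 24d replicate 3 (0.0558). Its partner Ehmt2 was lower with a log2 difference of -0.87 (adjusted p = 0.0129), with an adjusted p that missed 0.05 without 24d replicate 2 (0.177) or S/L replicate 3 (0.0525). Of 12 demethylation genes 3 were higher, 3 lower and 6 not past the test (median -0.63). The number lower was 1 without 24d replicate 2, 0 without 24d replicate 3 and 5 in a fit of the 5 libraries alone, and the median was -0.39 with the length score. Neil1 and Neil2, DNA glycosylases of base excision repair, rose by 1.15 and 1.33 (adjusted p = 0.00337 and 0.00329). Tet1 and Tet2, which oxidise methylcytosine, had log2 differences of -0.71 and -0.83 and did not pass (adjusted p = 0.345 and 0.185). The 24 bisulphite samples of the series were not analysed here.

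**Figure D3:**
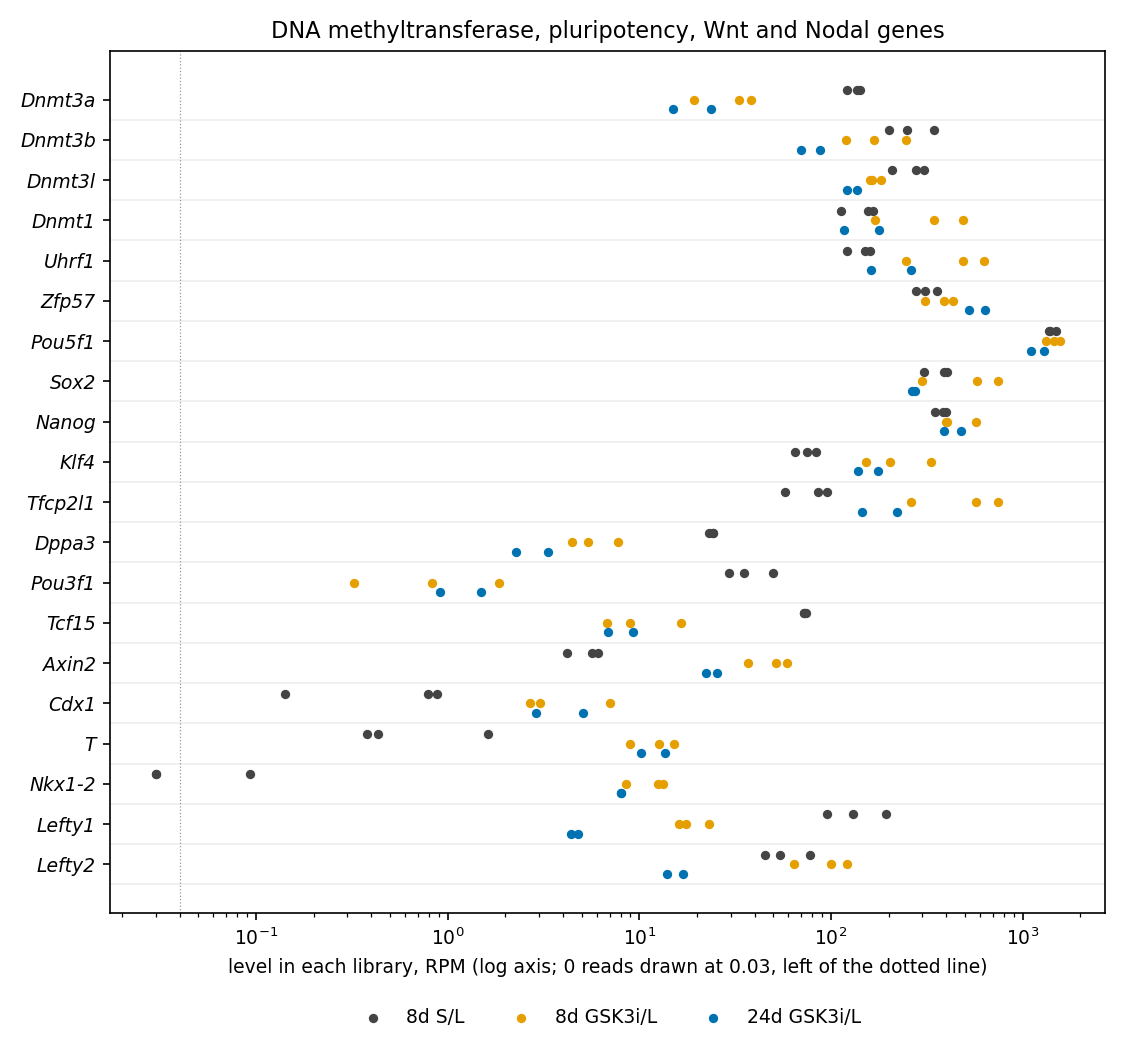
Levels in RPM (x axis, log scale) of genes of DNA methylation, pluripotency, the formative state, Wnt targets and Nodal feedback in each library of 8d S/L, 8d GSK3i/L and 24d GSK3i/L. Dnmt3a, Pou3f1, Tcf15 and Lefty1 lie left of S/L at 24 days, Axin2, T and Nkx1-2 lie right of it, and Pou5f1, Nanog and Dnmt1 do not pass the test.

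Genes that mark the rare 2-cell-like cells of serum cultures were at or near 0 reads at 24 days. Of 11 listed genes in the table, 9 passed the level filter; each of the 9 reached it within the S/L libraries and none in the 24d libraries, so that 9 of 9 lower follows from the filter and is given as a description. Zscan4d, of a gene family that lengthens telomeres in such cells, had 33.8, 23.2 and 15.5 RPM in S/L, 0, 0.128 and 1.15 RPM in 8d GSK3i/L and 0 reads at 24 days, at least 98-fold lower. Zscan4c and Zscan4f were at least 24-fold and 12-fold lower, and reads shared among these near-identical copies make the split between them uncertain. AU015836 had 15.1, 11.6 and 14.1 RPM in S/L and 2 reads at 24 days, a ratio of 167 (95% counting interval 46.1 to 1377). Tmem92 was at least 10-fold lower. With 8 of the 9 genes at their bound, the median difference was -3.37 on the log2 scale. Dub1a, a deubiquitinase gene among the largest falls, had 8.48, 5.21 and 4.68 RPM in S/L and 0 reads at 24 days.

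Gbp1 and Gbp2, guanylate-binding GTPases that interferon induces in cell defence, were at 0 reads at 24 days. Gbp2 had 20.7, 6.64 and 12.6 RPM in S/L, 0.470, 0.128 and 0.324 RPM in 8d GSK3i/L and 0 reads at 24 days, at least 54-fold lower. Gbp1 had 14.6, 5.41 and 10.4 RPM in S/L and 0 reads at 24 days, at least 41-fold lower. The 3 S/L libraries also differed among themselves, with replicate 2 lowest for both genes. Gbp9, of the same family, had 1.19, 0.745 and 0.711 RPM in S/L and 0.152 and 0.264 RPM at 24 days (log2 difference -2.10, adjusted p = 0.00956), with an adjusted p that missed 0.05 without 24d replicate 2 (0.102). Across the interferon-response list 7 of 15 were lower, 2 higher and 6 not past the test (median -0.71). Without 24d replicate 2, 24d replicate 3 or S/L replicate 2, 1 was higher, and the median was -0.37 without 24d replicate 3 and -0.15 without S/L replicate 1 or with the replicate block. Isg15, a ubiquitin-like modifier, was low in S/L at 1.19, 0.647 and 0.435 RPM and had 0 reads at 24 days, at least 3-fold lower. Stat2, a transcription factor of the same response, rose from 14.4, 23.4 and 17.4 RPM to 40.1 and 55.4 RPM (log2 difference 1.39 ± 0.23, adjusted p = 6.96e-04).

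Imprinted genes, expressed from 1 parental copy and controlled by DNA methylation, were lower in 12 of 25 cases, higher in 3 and not past the test in 10 (median -1.17, or -0.84 with genes at 0 reads set to their bound). Cdkn1c, a cell cycle inhibitor expressed from the maternal copy, had 86.2, 94 and 104 RPM in S/L, 8.96, 10.9 and 16.3 RPM in 8d GSK3i/L and 8.81 and 12.4 RPM at 24 days (log2 difference from S/L -3.17 ± 0.27, adjusted p = 3.79e-06). Slc22a18, in the same gene cluster, moved the other way, from 1.19, 1.22 and 1.57 RPM to 12.99 and 17.3 RPM (log2 difference 3.51 ± 0.32, adjusted p = 6.88e-06). Dlk1, a paternally expressed Notch-related protein, had 4.02, 3.44 and 7.12 RPM in S/L and 0 reads at 24 days, at least 19-fold lower. Magel2 had 0 reads in each library of the inhibitor at both times and was at least 9-fold lower than in S/L. H19, a maternally expressed RNA, had 0.763, 1.81 and 2.76 RPM in S/L and 0 and 0.705 RPM at 24 days (log2 difference -2.83, adjusted p = 0.0431), with an adjusted p that missed 0.05 without 24d replicate 2 (0.486), S/L replicate 2 (0.0990) or S/L replicate 3 (0.137), and with quantile normalization (0.0596) or without trend and robust variances (0.0566). Neighbours of 1 cluster thus lay on both sides of their serum level.

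Germline genes, many of which are silenced by promoter methylation, did not rise together. Of 26 tested, 9 were lower, 2 higher and 15 not past the test (median -1.05). With either 24d library left out 4 were lower, and 5 were without S/L replicate 3. Hormad1, a meiotic chromosome axis protein, had 27.6, 21.4 and 18.01 RPM in S/L, 2.92, 3.57 and 9.60 RPM in 8d GSK3i/L and 6.30 and 5.64 RPM at 24 days (log2 difference from S/L -1.88 ± 0.41, adjusted p = 0.00442). Its relative Hormad2 had 6.60, 3.55 and 3.16 RPM in S/L, 5.17, 5.15 and 11.8 RPM in 8d GSK3i/L and 18.99 and 24.4 RPM at 24 days (log2 difference 2.36 ± 0.38, adjusted p = 5.39e-04). The 2 paralogues therefore changed in opposite directions. Slc25a31, a germ cell ADP/ATP carrier, fell with a log2 difference of -2.37 (adjusted p = 0.00575), and Tex101, with 0 reads at 24 days, was at least 4-fold lower. Dazl and Sycp3, germ cell markers, did not pass (log2 differences -0.32 and -0.60, adjusted p = 0.561 and 0.303).

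Fibroblast and mesenchymal genes give the largest departure of the 24d libraries from the same medium at 8 days. Against S/L, 8 of 22 members tested were lower, 1 was higher and 13 did not pass. The 1 rise was lost without 24d replicate 2, S/L replicate 1 or S/L replicate 3. Against 8d GSK3i/L, 19 of the 22 were lower at 24 days, where 12.9% of all genes tested were lower and 4.31% higher. Without 8d GSK3i/L replicate 1, 17 were lower, where 513 of the 15357 genes tested were lower and 105 higher. Many members reached the level filter through the 8d GSK3i/L libraries, so these counts describe the libraries and are no test of the list. Within the 5 libraries of S/L and 24 days 12 members reach the filter and 4 are at 0 reads throughout. The summed level of the list was 102 to 142 RPM in S/L, 475 to 1025 RPM in 8d GSK3i/L and 126 to 145 RPM at 24 days, most of it Vim at 24 days, and 14 members were at 0 reads at 24 days. Col3a1, a fibrillar collagen of connective tissue, had 0.241, 0 and 0.155 RPM in S/L, 124, 84.99 and 51 RPM in 8d GSK3i/L and 0 reads at 24 days, at least 352-fold lower than at 8 days.

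Col1a1, the main collagen of fibroblasts, fell below its serum level as well. It had 5.95, 4.11 and 5.12 RPM in S/L, 86.1, 53.6 and 30.5 RPM in 8d GSK3i/L and 0.152 and 0.264 RPM at 24 days (log2 difference from S/L -4.64 ± 0.44, adjusted p = 7.72e-06, and from 8 days -8.02, adjusted p = 1.41e-07). Tnc, the matrix protein tenascin-C, had 0.154, 0 and 0.0935 RPM in S/L, 23.03, 11.9 and 7.16 RPM in 8d GSK3i/L and 0 reads at 24 days, at least 57-fold lower than at 8 days. Prrx1, a limb mesenchyme homeobox factor, was at 0 reads in S/L and at 24 days and had 8.33, 5.15 and 7.26 RPM in 8d GSK3i/L. Zeb2, a repressor that drives epithelial-mesenchymal transition, had 1.62, 1.02 and 1.47 RPM in S/L, 2.97, 1.42 and 2.77 RPM in 8d GSK3i/L and 0 reads at 24 days, at least 5-fold lower than in S/L. Col1a2 and Meox1, with 0 reads at 24 days, were each at least 4-fold lower than in S/L, Meox1 also being at 0 reads at 8 days. Pdgfra, a receptor of mesenchyme and primitive endoderm, was the member that rose (log2 difference from S/L 2.02, adjusted p = 0.0213). It was named after its value had been seen. For Col1a1, Col3a1, Tnc and Prrx1 the 3 libraries of 8d GSK3i/L were each above the S/L and 24d libraries.

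Hox genes, which pattern the body axis, were at low levels in both groups, and most did not pass the test against serum. Of 22 tested, 3 were higher than in S/L at 24 days, 2 were lower and 17 did not pass (median -0.19, or 0.20 with quantile normalization). In 8d GSK3i/L 18 were higher than in S/L, where 16.6% of all genes tested were higher. Without 8d GSK3i/L replicate 1, 15 were higher, and no share of all genes is given for that fit. Within the 5 libraries of S/L and 24 days 6 members reach the level filter and 2 are at 0 reads throughout; the others passed it only with libraries outside these 5, so that these counts describe the libraries and are no test of the list. The number lower was 0 without 24d replicate 3 and 1 without 24d replicate 2, S/L replicate 1 or S/L replicate 2. Most had under 1 RPM in these libraries. In the direct test of 24d against 8d GSK3i/L, 12 of the 22 were lower at 24 days, where 12.9% of all genes tested were lower. That number was 7 without 8d GSK3i/L replicate 1, where 513 of the 15357 genes tested were lower. The direct counts, too, describe the libraries and are no test of the list. Hoxc12 had 0, 0.142 and 0.232 RPM in S/L, 1.38, 2.12 and 1.57 RPM in 8d GSK3i/L and 2.73 and 4.49 RPM at 24 days (log2 difference from S/L 4.64 ± 0.46, adjusted p = 1.11e-05). Hoxc13 had 1.41, 2.98 and 2.27 RPM in S/L and 10.9 and 14.3 RPM at 24 days (log2 difference 2.56 ± 0.32, adjusted p = 6.13e-05). Hoxc4, with 3 reads in S/L, had 1.98 and 1.67 RPM at 24 days, a ratio of 18.6 (95% counting interval 6.35 to 90.04). The 3 members that rose thus lie in the HoxC cluster. Hoxd10, at the other extreme, was at 0 reads in S/L and at 24 days and had 1.56, 1.42 and 1.57 RPM in 8d GSK3i/L.

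Genes of the primitive streak, where Wnt signalling induces mesoderm, were split between those that persisted and those that did not. Of 9 tested, 3 were higher than in S/L, 1 lower and 5 not past the test (median 0.58, or -0.19 with no filter on low values). T, the mesoderm factor brachyury, had 1.62, 0.379 and 0.435 RPM in S/L, 15.2, 8.92 and 12.7 RPM in 8d GSK3i/L and 13.6 and 10.2 RPM at 24 days (log2 difference from S/L 4.19 ± 0.60, adjusted p = 1.92e-04). Nkx1-2, a homeobox factor of the caudal progenitor region, had 1 read in S/L, 12.5, 8.54 and 13.3 RPM in 8d GSK3i/L and 8.05 and 8.01 RPM at 24 days, a ratio of 24 days to S/L of 245 (95% counting interval 44.03 to 9689.5). Gsc, an organiser homeobox factor, rose from 0.154, 0.215 and 0.155 RPM to 0.608 and 0.616 RPM (log2 difference 1.83, adjusted p = 0.00225). Each S/L library held at most 3 reads of Gsc, so this rise rests on few reads. Kdr, the VEGF receptor of early mesoderm and endothelium, had 1.51, 0.647 and 0.892 RPM in S/L and 2 reads at 24 days, a ratio of S/L to 24 days of 12.5 (95% counting interval 3.46 to 103). Eomes, Tbx6 and Mesp2 did not pass (adjusted p = 0.367, 0.448 and 0.287).

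Neural markers were lower where they passed: 4 of 8 were lower and the other 4 did not pass (median -1.52, or -0.44 with no filter on low values). Pax6, an eye and forebrain factor, had 33.1, 29.2 and 33.1 RPM in S/L, 8.67, 7.16 and 11.7 RPM in 8d GSK3i/L and 8.58 and 7.22 RPM at 24 days (log2 difference from S/L -2.01 ± 0.22, adjusted p = 1.97e-05). Nes, an intermediate filament of neural progenitors, had 28.6, 21.04 and 49.4 RPM and 2.35 and 5.20 RPM (log2 difference -3.15, adjusted p = 1.61e-04), and Tubb3, neuronal tubulin, had 66.8, 57.8 and 65.7 RPM and 10.7 and 8.89 RPM (log2 difference -2.70, adjusted p = 8.61e-05). Sox1 and Stmn2 did not pass (log2 differences 0.07 and -0.40, adjusted p = 0.927 and 0.195). The 24d values of Pax6, Nes and Tubb3 lie below each S/L value.

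Primitive endoderm markers mostly did not pass, with 1 of 12 higher, 1 lower and 10 not past the test (median 1.15). These values rest on single 24d libraries: without replicate 2 none was higher and the median was 0.16, and without replicate 3, 4 were higher and it was 2.08. Other settings gave 1 to 5 higher and 0 to 2 lower, and none was lower without either 24d library, S/L replicate 2 or S/L replicate 3. Sox17, an endoderm factor, had 0.154, 0.467 and 0.711 RPM in S/L and 7.67 and 2.20 RPM at 24 days (log2 difference 3.47, adjusted p = 0.00415), with an adjusted p that missed 0.05 without 24d replicate 2 (0.0770). The defining markers Gata4 and Gata6 had 6.76 and 2.29 RPM and 3.19 and 1.06 RPM at 24 days and did not pass (adjusted p = 0.0529 and 0.642). Trophoblast markers numbered 4 higher, 3 lower and 4 not past the test of 11 (median 0.52, or -0.28 without 24d replicate 3 and 1.22 without 24d replicate 2). Leaving out 24d replicate 3 or any S/L library left 2 higher, and the median was 0.16 without S/L replicate 2 and 0.33 without S/L replicate 3. Tead4, a TEAD factor of the trophectoderm that ES cells also express, had 4.16, 6.52 and 5.34 RPM in S/L and 17.4 and 22.2 RPM at 24 days (log2 difference 1.90 ± 0.32, adjusted p = 6.58e-04). Tfap2a rose by 1.36 (adjusted p = 0.00248), Krt19 fell with a log2 difference of -2.29 (adjusted p = 0.00255), and Gata3, with 0 reads at 24 days, was at least 3-fold lower. Gata2 had 0.763, 1.13 and 0.892 RPM in S/L and 7.22 and 22.1 RPM at 24 days (log2 difference 3.79, adjusted p = 0.0294), with an adjusted p that missed 0.05 without 24d replicate 2 (0.0565), 24d replicate 3 (0.223), S/L replicate 1 (0.0678), S/L replicate 2 (0.0546) or S/L replicate 3 (0.0691). It missed 0.05 with the replicate block (0.0581) and without trend and robust variances (0.0505) as well. The summed level of the primitive endoderm list was 12.8 to 21.2 RPM in S/L and 17.3 to 58.4 RPM at 24 days, and that of the trophoblast list 91.01 to 147 RPM and 93.2 to 109.5 RPM. The part of rare differentiated cells in the results was not tested.

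Epithelial junction genes moved in both directions, with 8 of 19 lower, 2 higher and 9 not past the test (median -0.89). Without 24d replicate 2, 5 were lower, and 1 was higher without 24d replicate 3. Cdh3, P-cadherin, had 19.98, 23.9 and 23.6 RPM in S/L and 4.03 and 6.61 RPM at 24 days (log2 difference -2.12 ± 0.29, adjusted p = 1.45e-04). Ocln, occludin of tight junctions, fell from 8.88, 9.19 and 9.29 RPM to 3.04 and 2.11 RPM (log2 difference -1.85, adjusted p = 0.00101). Crb3, a polarity protein of the apical membrane, rose from 9.37, 12.8 and 10.2 RPM to 35.3 and 47.5 RPM (log2 difference 1.94 ± 0.24, adjusted p = 5.53e-05). Cdh1, E-cadherin, had 184, 226 and 226 RPM and 91 and 126 RPM and narrowly did not pass (log2 difference -0.98, adjusted p = 0.0510). None of the 13 basement membrane genes passed (limma; 2 had an unadjusted p under 0.05), and their median was -0.09, which turned to 0.03 with TMM scaling. With the length score in the fit 3 of them were higher and 1 lower, and without S/L replicate 1, 1 was lower. Fn1, fibronectin, had 155, 199 and 179.7 RPM in S/L and 178 and 387 RPM at 24 days (log2 difference 0.57, adjusted p = 0.474).

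Glycolysis and hypoxia genes were lower in 10 of 24 cases, higher in 3 and not past the test in 11 (median -0.54). Without 24d replicate 3, 3 were lower and 1 was higher. Slc2a1, the glucose transporter GLUT1, had 393, 361 and 435 RPM in S/L, 256, 171 and 142 RPM in 8d GSK3i/L and 55.7 and 52.6 RPM at 24 days (log2 difference from S/L -2.87 ± 0.29, adjusted p = 1.11e-05). It was lower at 24 than at 8 days by -1.76 ± 0.29 (adjusted p = 0.00234). Slc16a3, the lactate exporter MCT4, had 115, 96.5 and 108 RPM in S/L, 49.7, 52.2 and 45.95 RPM in 8d GSK3i/L and 10.9 and 12.9 RPM at 24 days (log2 difference from S/L -3.16 ± 0.41, adjusted p = 8.72e-05). Bnip3, a mitophagy receptor induced by hypoxia, had 384, 267 and 200.2 RPM in S/L and 63.6 and 43.1 RPM at 24 days (log2 difference -2.39, adjusted p = 0.00638), with an adjusted p that missed 0.05 without 24d replicate 3 (0.0757). Slc2a3, the glucose transporter GLUT3, did not pass (log2 difference -0.02, adjusted p = 0.966), and the difference between the 2 transporters was not tested.

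Most cholesterol synthesis genes did not pass the test against serum at 24 days. Of 22 tested, 5 were higher, 1 lower and 16 not past the test (median 0.38). In 8d GSK3i/L against the same S/L libraries 19 of the 22 had been higher, where 16.6% of all genes tested were higher. Without 8d GSK3i/L replicate 1, 15 had been higher, and no share of all genes is given for that fit. At 24 days 3 were higher without 24d replicate 2 or without any 1 S/L library, 9 with TMM scaling and 14 with the length score in the fit. In the direct test of 24d against 8d GSK3i/L, 7 of the 22 were lower at 24 days, where 12.9% of all genes tested were lower. That number was 4 without 8d GSK3i/L replicate 1, where 513 of the 15357 genes tested were lower. Tm7sf2, a sterol reductase, had 30.4, 18.5 and 17.4 RPM in S/L, 35.2, 44.1 and 55.5 RPM in 8d GSK3i/L and 68.8 and 69.5 RPM at 24 days (log2 difference from S/L 1.69 ± 0.24, adjusted p = 1.99e-04). Ebp, a sterol isomerase, had 33.7, 20.2 and 21.3 RPM in S/L, 44.05, 40.5 and 65.3 RPM in 8d GSK3i/L and 58.9 and 50.5 RPM at 24 days (log2 difference from S/L 1.16, adjusted p = 0.00397). Stard4, a protein that carries cholesterol between membranes, had 37.5, 33.2 and 35.96 RPM in S/L, 92.3, 90.98 and 81.8 RPM in 8d GSK3i/L and 72.4 and 55.3 RPM at 24 days (log2 difference from S/L 0.83, adjusted p = 0.00196).

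Among genes that ATF4 induces under amino acid stress, 3 of 19 were higher, 1 lower and 15 not past the test (median 0.31). The 1 fall was lost without 24d replicate 2, 24d replicate 3 or S/L replicate 3, 6 were higher with the length score in the fit, and the median was 0.19 without S/L replicate 2. Nupr1, a stress-induced chromatin protein, had 18.1, 13.5 and 16.8 RPM in S/L, 35.3, 66.4 and 37.8 RPM in 8d GSK3i/L and 106 and 129.9 RPM at 24 days (log2 difference from S/L 2.87 ± 0.31, adjusted p = 1.97e-05). Asns, asparagine synthetase, had 205, 228 and 272 RPM in S/L and 672 and 703 RPM at 24 days (log2 difference 1.56 ± 0.23, adjusted p = 2.86e-04). Atf4, Trib3 and Chac1 did not pass, with log2 differences of 0.07, 0.36 and -0.48 (adjusted p = 0.862, 0.337 and 0.554), and most members were on this side of the threshold. Of 10 mitochondrially encoded genes 2 were higher and 8 did not pass (median 0.50), and these genes can share reads with copies in the nuclear genome. None was higher without 24d replicate 3 or S/L replicate 2, 1 was without 24d replicate 2 or S/L replicate 3, and the median was 0.27 without 24d replicate 3.

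Cell cycle genes of G1 were divided, with 4 of 16 higher, 5 lower and 7 not past the test. Without 24d replicate 2, 2 were higher. Cdkn1a, the inhibitor p21 and a p53 target, had 25.5, 52.8 and 40.6 RPM in S/L, 173, 266 and 112 RPM in 8d GSK3i/L and 104 and 154 RPM at 24 days (log2 difference from S/L 1.74 ± 0.34, adjusted p = 0.00218). Cdk2, the kinase it inhibits, rose from 67.1, 74.6 and 70.6 RPM to 162 and 226 RPM (log2 difference 1.43, adjusted p = 1.31e-04). Ccnd2, a D-type cyclin, fell from 12.9, 9.38 and 15.9 RPM to 4.79 and 1.67 RPM (log2 difference -2.14, adjusted p = 0.00171), and Rb1, the pocket protein, fell with a log2 difference of -1.34 (adjusted p = 0.00155). Cyclin-dependent kinase inhibitors thus lay on both sides, with Cdkn1a above serum and Cdkn1c below it. Of 15 p53 targets 1 was higher, 3 lower and 11 not past the test. The number lower was 1 without 24d replicate 2, 24d replicate 3, S/L replicate 2 or S/L replicate 3, and 6 with the length score in the fit. Perp, a desmosomal p53 target, fell from 59.01, 46.8 and 59.5 RPM to 8.89 and 6.61 RPM (log2 difference -2.84 ± 0.36, adjusted p = 8.06e-05), and Mdm2 and Ccng1 did not pass (log2 differences -0.48 and -0.04, adjusted p = 0.157 and 0.924).

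LIF was present in both media, and 9 of 12 LIF and STAT3 genes did not pass, with 1 higher and 2 lower. The number lower was 1 without 24d replicate 2, 24d replicate 3, S/L replicate 2 or S/L replicate 3, and 2 were higher without 24d replicate 2. Osm, oncostatin M, a cytokine of the LIF family, had 0.0918, 0.306 and 0.331 RPM in S/L, 6.92, 6.41 and 6.24 RPM in 8d GSK3i/L and 3.57 and 3.70 RPM at 24 days (log2 difference from S/L 4.11 ± 0.42, adjusted p = 1.29e-05). Socs3, the feedback inhibitor that reports STAT3 activity, had 81.3, 86.6 and 98.5 RPM in S/L and 111 and 174 RPM at 24 days and did not pass (log2 difference 0.66, adjusted p = 0.0542). Osm was the member of the list with a rise, and its receptor Osmr did not pass (log2 difference 0.95, adjusted p = 0.550).

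**Figure D4:**
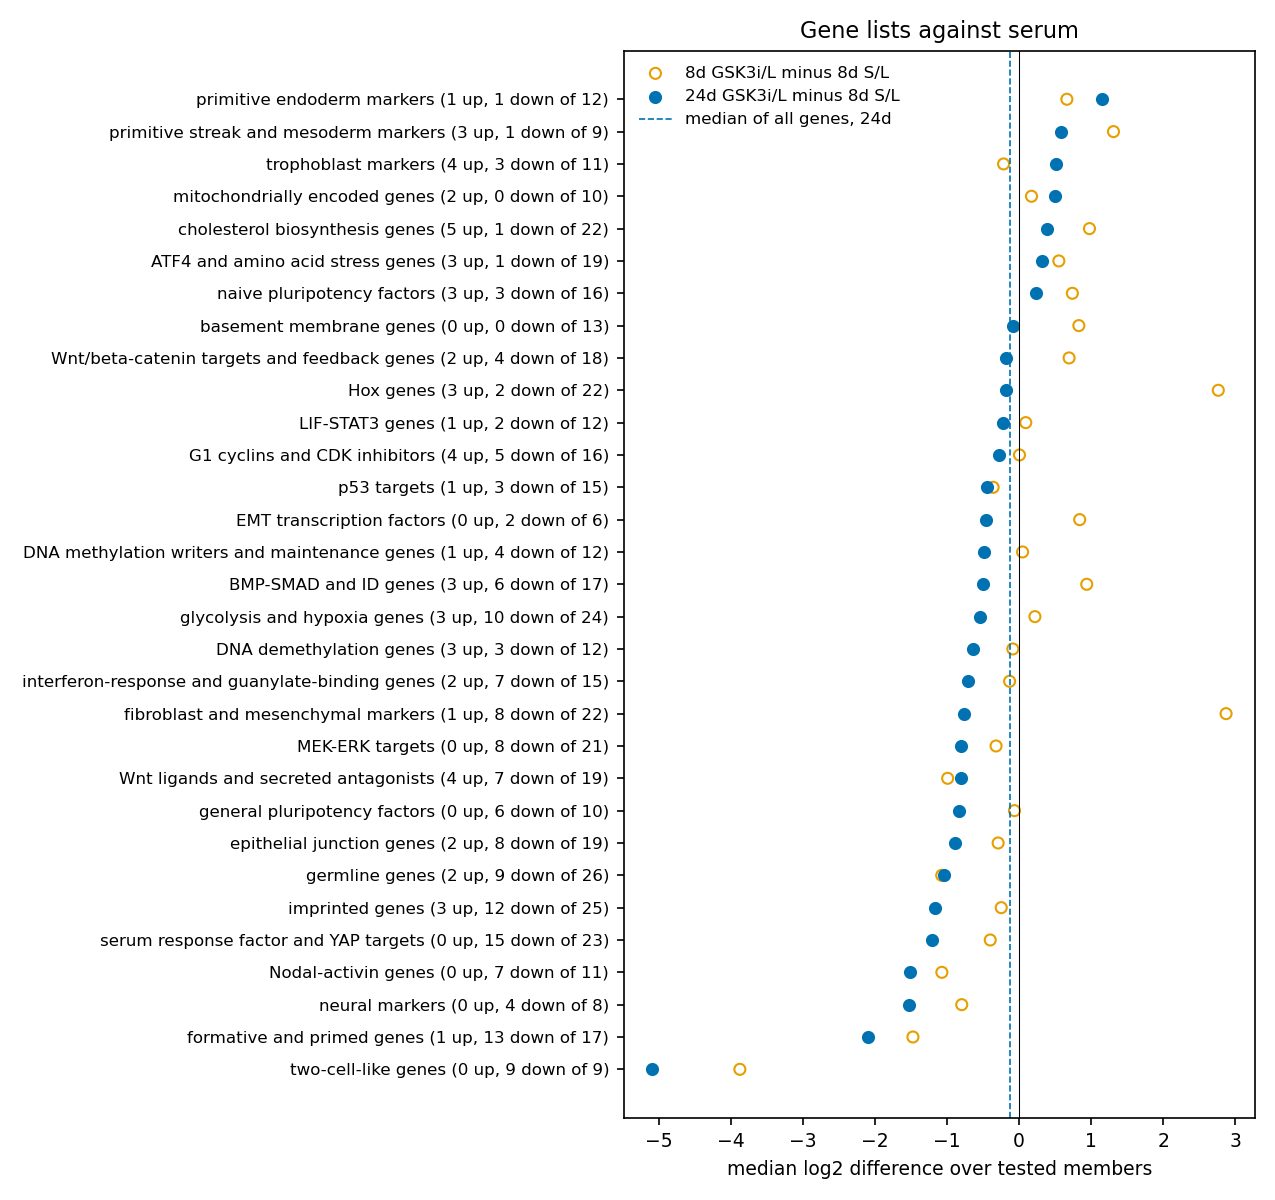
Each filled blue point is the median log2 difference of 24d GSK3i/L from 8d S/L (x axis) over the tested members of a gene list, and each open orange point the same for 8d GSK3i/L, which shares the S/L libraries; the dashed line is the 24d median of all genes tested (-0.12). The 2-cell-like, formative, neural, Nodal and SRF lists have the lowest medians, at -5.08, -2.10, -1.52, -1.51 and -1.21, of which the first is fitted and is -3.37 with genes at 0 reads set to their bound; the neural median is -0.44 with no filter on low values.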

How the data were processed

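RNA was sequenced from poly(A) libraries of a directional kit; use of strand in counting is not stated. The authors deposited 1 log2 value per gene and library, on the scale of reads scaled to the library total (RPM). Tools in the submitters' processing notes are HISAT2 and, for trimming, Trim Galore 0.6.5, with Bismark 0.22.3 and the build GRCm38. In 8 of the 14 libraries, the 24d ones among them, 1 read has a constant worth and 0 reads are listed at 0.9 of a read. In the 6 libraries of 8d S/L and 8d GSK3i/L the sorted values above 2 RPM differ by at most 0.083 log2, so these had been matched to a common distribution, and their low read numbers were recovered from the order of values. Of 25965 genes, the 15357 that reached 0.5 RPM in 2 or more libraries were fitted with limma 3.58.1 (trend and robust variances, group means of all 14 libraries) in R 4.3.3. Genes were called at a Benjamini-Hochberg adjusted p under 0.05 and 2-fold, and list members without a minimum fold.

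A gene at 0 reads in a group is compared with 3 reads per library in that group ("at least"), and one with 1 to 3 reads by a ratio with an exact Poisson 95% interval, which covers counting error only. Genes were named as the 15 largest rises and falls with groups that do not overlap and at least 5 RPM in the higher group, leaving out predicted genes, the 6 largest differences of 24d from 8d GSK3i/L on each side with and against the change from S/L, and up to 5 members of each list. Some genes are not reported here; they stay in the fit and in the counts of their lists. The 31 lists, and the comparison itself, were chosen with earlier results of these data known. Of the gene identifiers, 25035 matched the table of names. On simulated data of this design (15340 genes) the fit recovered 32% of 100 genes changed 2-fold and 99% of 100 changed 4-fold, and 5.76% of its calls were false. The changed genes had at least 5 RPM in S/L, all genes shared a common dispersion, and no length effect was simulated. These rates therefore do not cover genes at lower levels or libraries that stand apart from their group. Alternatives were other filters, scalings (TMM, a trimmed mean of log ratios of the linear values, and quantile normalization), a pseudocount of 0.5, a score of 36 long minus 40 short transcripts as a covariate, a replicate block, and leaving out each library. The 24 bisulphite samples were not analysed here.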

Additional observations from a re-analysis of the deposited data

Results flagged for a closer look

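For 60 of the 166 named genes, the difference from S/L after 24 days in GSK3i/L was not the difference after 8 days, by the direct test of 24d against 8d GSK3i/L (limma, adjusted p under 0.05). At 24 days 42 were lower than at 8 days and 18 were higher. The value after each gene is that log2 difference, 24 minus 8 days (n = 2 and 3). Among the 166 are genes named because they passed the direct test with a large difference, so the count of 60 is raised by the choice and is no test. Of all genes tested, 4.31% were higher and 12.9% lower at 24 than at 8 days in the inhibitor. The fitted values of genes at 0 to 3 reads depend on the value set for 0 reads. Fibroblast, mesenchymal and matrix genes were lower, namely Col3a1 (-10.11), Col1a1 (-8.02), Col6a1 (-7.03), Col1a2 (-6.99), Col6a2 (-6.22), Tnc (-7.41), Serpinf1 (-5.97), Prrx2 (-4.35), Zeb2 (-4.94) and Twist1 (-2.42). SRF and YAP targets were lower, namely Thbs1 (-8.99), Acta2 (-8.35), Tagln (-4.66), Myl9 (-4.36) and Cnn1 (-2.54). Wnt and Nodal genes were lower, namely Wnt5a (-3.27), Lefty2 (-2.58), Wnt8a (-2.22), Notum (-2.14), Lefty1 (-2.03), Lef1 (-1.44), Axin2 (-1.02) and Skil (-0.78). Genes of pluripotency, DNA and histone methylation and imprinting were lower, namely Dlk1 (-3.02), Tfcp2l1 (-1.43), Sall4 (-1.31), Dnmt3b (-1.13), Dppa3 (-1.05), Nr0b1 (-1.04) and Ehmt1 (-0.78). Metabolic and cell cycle genes were lower, namely Slc16a3 (-2.05), Ccnd2 (-1.97) and Slc2a1 (-1.76). The other lower genes were Kdr (-4.15), Fndc3c1 (-3.39), Cubn (-3.12), Tnfsf11 (-2.52), Smtnl1 (-1.90), Dusp5 (-1.80), Nes (-1.79), Gbp9 (-1.62) and Tubb3 (-1.41). The 7 largest rises were S100g (6.51), Car4 (5.15), Pitx1 (4.96), Cited1 (3.31), Cfd (2.98), Spink3 (2.95) and Dpp4 (2.80). Smaller rises were Dll1 (2.39), Guca1a (2.31), S100a1 (2.14), C8b (2.10), Acyp1 (2.10), Grin2c (1.79), Hormad2 (1.66), Car9 (1.57), Nupr1 (1.40), mt-Co3 (1.11) and Crb3 (1.05). The library 8d GSK3i/L replicate 1, which has the highest long-transcript score, moves this contrast: 33 of the 60 kept the call without it, 27 with the score as a covariate and 26 under both. Over all genes, 662 were higher and 1988 lower at 24 days. These counts became 105 and 513 without that library, and 124 and 524 with the covariate. Without 24d replicate 2 they were 89 and 359, and without 24d replicate 3 they were 27 and 366. TMM scaling gave 886 and 1226, quantile normalization 714 and 1132, and the replicate block 252 and 995.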

How the results depend on the processing

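The number of genes lower at 24 days was 1600 and ranged from 1173 to 1520 when 1 library at a time was left out. The number higher was 1093 and ranged from 602 to 1012, the lowest without 24d replicate 3, which left that group with 1 library assumed to vary like the others. Other filters, scalings, covariates and variance models gave 952 to 1379 higher and 1349 to 1756 lower, with no minimum fold 1553 and 2299. Of 154 named genes past the test, 112 stayed past it under every setting run. The calls lost numbered 29 without 24d replicate 2, 35 without 24d replicate 3, 12 to 22 without an S/L library and 0 to 7 under each other setting. Among genes not past the test, leaving out libraries turned the sign of Car4 (-2.66 to 0.33), Dll1 (-0.81 to 0.31), Guca1a (-0.27 to 0.40) and Zfp42 (-0.31 to 0.13). Zfp42 also turned with TMM scaling (0.029), Cfd with the length score (-0.11) and Guca1a with the length score (-0.36) and the replicate block (-0.22). The cause was not tested. Whether replicate numbers pair the libraries could not be judged. Deviations of same-numbered 24d and S/L libraries correlated at -0.135 and 0.106. With 2 libraries at 24 days their deviations mirror each other, so these correlations are not independent. The fit with the replicate block gave 1012 higher and 1513 lower. The median of the basement membrane list changed sign with quantile normalization (0.0050), the length score (0.10) and the block (0.0045), that of Hox genes became 0 on the log2(RPM + 0.5) scale, and that of trophoblast markers was -0.19 with no filter. How many members of each list were higher or lower under each setting was computed after the data had been seen. Depth limits genes under 0.246 RPM at 24 days and 0.229 RPM in S/L, where a library has at most 3 reads.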
